A study of Mus musculus with 56 samples.

Results

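The 9 genes described here, of 47937 listed in each of 2 count tables, are the coinhibitory receptors Pdcd1 (PD-1), Lag3, Havcr2 (TIM-3), Tigit, Cd160 and Btla, the ectonucleotidase Entpd1 (CD39) and the transcription factors Tox and Tox2. They were chosen by name as the genes commonly read as a T cell exhaustion or dysfunction profile, with earlier results of these data known, though the rule itself uses no measured value. All 9 were found by symbol and passed the low-count filter in both tables. RNA was sequenced from mouse CD4+ T cells of spleen and lymph node, purified by negative selection, in which cells of other types are meant to be removed, then activated with anti-CD3, anti-CD28 and IL-2 and cultured for 4 days under conditions for TH1 (IL-12, anti-IL-4), TH2 (IL-4, anti-IFN-γ), TH17 (IL-6, TGF-β, IL-1, anti-IFN-γ, anti-IL-4) or Treg cells (TGF-β, anti-IFN-γ, anti-IL-4). The donors were C57BL/6 mice of 6 to 10 weeks. KO cells came from Odc flox/flox or Dohh flox/flox mice that carried Cre under the CD4 promoter, and WT cells came from animals lacking Cre. ODC makes putrescine, the first step of polyamine synthesis, and DOHH completes hypusine, an amino acid derived from spermidine and found in the translation factor eIF5A. The Odc table holds 4 libraries per group, with 3 for TH2 KO, and the Dohh table holds 3 per group. No label says that libraries of a group came from separate animals, so p-values measure the spread between these libraries, which may be in part technical.

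Coinhibitory receptors are induced when a T cell is activated and dampen signalling through the T cell receptor and CD28 when they meet their ligands. PD-1 binds PD-L1 and PD-L2, LAG-3 binds MHC class II, TIM-3 binds galectin-9 and other ligands, TIGIT competes with the activating receptor CD226 for CD155, and BTLA and CD160 share the ligand HVEM. CD39 degrades extracellular ATP on the path to adenosine and is a surface marker of Treg cells. TOX and TOX2 are HMG-box factors that drive the exhausted state of chronically stimulated T cells, and TOX is also needed for CD4+ T cell development in the thymus. Coexpression of several of these receptors is 1 feature of exhaustion, a dysfunctional state of chronically stimulated T cells, and each gene was followed by itself and beside the others.

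In GENCODE M21 on GRCm38, the same assembly as the authors' mm10, Pdcd1 lies at chr1:94038305-94052553 on the minus strand, Lag3 at chr6:124904361-124911705 (minus), Havcr2 at chr11:46454935-46481255 (plus), Tigit at chr16:43648867-43664146 (minus) and Cd160 at chr3:96798763-96829351 (minus). Btla lies at chr16:45224315-45257670 (plus), Entpd1 at chr19:40612366-40741602 (plus), Tox at chr4:6686353-6991557 (minus) and Tox2 at chr2:163203125-163324170 (plus). All 9 are protein-coding, and the counts are over their exons. Exons of Cd160 share 68 bases (2.574% of their length) with Pdzk1 on the opposite strand, and exons of Tox share 260 bases (3.417%) with the antisense gene Gm11802. The strand setting of the counting is not given in the sources used here, so reads in those bases cannot be assigned to one gene or the other.

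The promoters of Havcr2, Cd160 and Btla are shown because these genes gave the largest and most regular changes below. Each run is the 250 bases before a RefSeq transcript start (GRCm38.p6), 5′ to 3′ on the gene's strand, with searched motifs in capitals. The windows are, for Havcr2, chr11:46454681-46454930 (plus), for Cd160, chr3:96829352-96829601 and chr3:96814522-96814771 (both minus), and, for Btla, chr16:45224087-45224336 (plus).
Havcr2: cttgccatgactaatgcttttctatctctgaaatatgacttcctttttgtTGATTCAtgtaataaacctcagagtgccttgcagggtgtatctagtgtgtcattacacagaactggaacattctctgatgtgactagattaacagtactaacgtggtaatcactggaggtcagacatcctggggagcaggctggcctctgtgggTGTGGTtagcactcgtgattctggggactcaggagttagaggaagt
Cd160, start 1: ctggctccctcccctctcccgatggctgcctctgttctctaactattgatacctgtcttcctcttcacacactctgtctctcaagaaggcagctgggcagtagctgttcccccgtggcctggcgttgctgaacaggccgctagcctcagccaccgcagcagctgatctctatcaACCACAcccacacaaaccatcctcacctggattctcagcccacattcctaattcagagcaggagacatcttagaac
Cd160, start 2: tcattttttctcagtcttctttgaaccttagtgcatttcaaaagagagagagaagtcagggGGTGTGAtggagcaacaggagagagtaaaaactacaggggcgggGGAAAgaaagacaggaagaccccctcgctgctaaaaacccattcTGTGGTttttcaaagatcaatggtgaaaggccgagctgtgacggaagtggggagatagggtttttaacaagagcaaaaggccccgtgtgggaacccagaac
Btla: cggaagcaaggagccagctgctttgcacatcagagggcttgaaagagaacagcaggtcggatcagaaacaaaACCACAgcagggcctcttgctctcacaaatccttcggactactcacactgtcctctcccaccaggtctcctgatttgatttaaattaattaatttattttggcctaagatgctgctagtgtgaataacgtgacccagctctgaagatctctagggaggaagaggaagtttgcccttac
The capitals mark, in Havcr2, an AP-1 motif (TGANTCA) 200 to 194 bases before the start and a RUNX core (TGTGGT) 46 to 41 bases before it. In Cd160 they mark a RUNX core, read on the opposite strand, 76 to 71 bases before start 1, and before start 2 a T-box core (GGTGTNA, 189 to 183 bases before), an NFAT core (GGAAA, 145 to 141) and a RUNX core (101 to 96). In Btla the one match was a RUNX core on the opposite strand, 178 to 173 bases before the start. RefSeq windows were found for 7 of the 9 genes, 13 windows in all, some of which overlap. Of those 13, 6 held the NFAT core, which 55.566% of all 32851 promoter windows hold, 5 the RUNX core (14.0452% of all windows), and 1 each the AP-1 motif (6.7487%), the T-box core (8.6086%) and the GATA core AGATAA (9.9875%). The ETS core CCGGAAG was found in 0 of the 13 (6.9069% of all windows). All motifs were searched on both strands, and a match is a run of letters, not a measured binding site.

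Library totals were 5905374 to 9145214 counts in the Odc table and 6572148 to 12576933 in the Dohh table, so that 3 counts, the limit that a count of 0 allows, correspond to at most 0.499 CPM (counts scaled to library size with TMM factors). The targeted transcripts did not separate the labels by a loss. Odc1 was at 357 to 859.9 CPM in WT and 424 to 679.8 CPM in KO of the Odc table, and Dohh was at 31.5 to 45.9 CPM in WT and 45.2 to 148 CPM in KO of the Dohh table. Counts over whole genes also cover the exons that the deletions leave, so the labels could not be checked in this way, and KO below means a library labelled KO. Cd4, the defining marker of the isolated cells, was at 441 to 1032 CPM in WT and 273 to 694 CPM in KO of the Odc table, but at 661 to 968 CPM in WT and 22.1 to 79.7 CPM in KO of the Dohh table. Summed markers of γδ T cells were at 7.54 to 37.5 CPM in WT and 59.2 to 341 CPM in KO of the Odc table, and at 17 to 42.2 and 358 to 884 CPM in the Dohh table. All 7 basophil and mast cell markers were called higher in KO in all 8 comparisons. Summed myeloid markers reached 4538 and 3074 CPM in the TH17 and Treg libraries of Dohh KO replicate 2 and 1481 and 1884 CPM in those of replicate 3, against at most 35.4 CPM in WT of that table. Libraries were placed on a scale where the WT mean profile of the subset is 0 and the KO mean profile is 1. Each mean left out the library being placed. The TH1 library of Odc KO replicate 1 lay at 0.526, and the WT libraries of number 4 in the Odc table reached 0.332. In bulk RNA, a change in how many cells of a type are present and a change in RNA per cell cannot be told apart, and this holds for every result below.

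Each deletion was compared with its own WT in each subset to ask which of the 9 genes differed. A gene was called where the fold was over 2 and the adjusted p (edgeR's quasi-likelihood test, Benjamini-Hochberg over all genes tested) was below 0.05. Of 72 tests, 40 were called, 26 higher and 14 lower in KO. A stricter test, of a change beyond 2-fold, kept 29 of the 40. Havcr2 and Cd160 were called higher in all 8 comparisons, whereas the other 7 genes were called in 2 to 6, and Lag3, Tigit, Entpd1 and Tox in both directions. In the Odc table, 3 of 9 were higher and 2 lower in TH1 cells (10.2% and 11.3% of all 13839 genes tested), and 3 higher and 3 lower in TH2 cells (11.5% and 13.6%). TH17 cells had 3 higher and 0 lower (8.35% and 7.21%), and Treg cells 2 higher and 0 lower (13.9% and 10.1%). In the Dohh table, 3 were higher and 3 lower in TH1 cells (14.8% and 14.2% of all 13897 genes), 4 and 2 in TH2 cells (14.3% and 11.6%), 4 and 2 in TH17 cells (17.3% and 14.1%), and 4 and 2 in Treg cells (17.5% and 15.2%). The median log2 fold change of the 9 ran from -0.64 (Odc TH2) to 0.97 (Dohh TH17), beside medians over all genes of -0.0019 to 0.073. The plot of log2 fold changes shows all 72 values with their intervals.

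**Figure D1:**
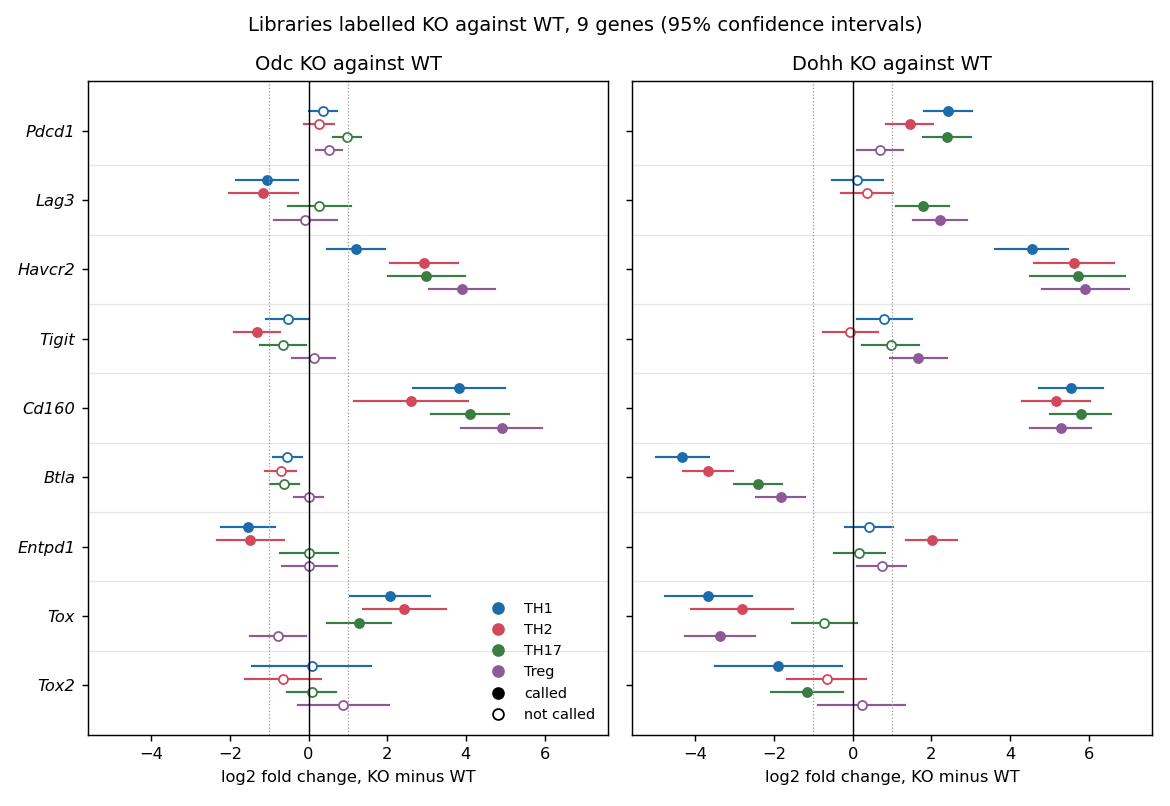
Log2 fold change of KO against WT (x axis) for each of the 9 genes (y axis) in the Odc table (left) and the Dohh table (right), coloured by subset. Points are estimates, lines are 95% confidence intervals, filled points were called and dotted lines mark a 2-fold change. Havcr2 and Cd160 lie right of the 2-fold line in all 8 comparisons, and Tox lies on opposite sides of 0 in the 2 tables for TH1, TH2 and TH17 cells.

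Havcr2, which encodes TIM-3, was higher in KO cells of every subset, by 2.32-fold to 14.9-fold in the Odc table and by 23.4-fold to 60.1-fold in the Dohh table. Leaving out 1 library moved both inner limits, from a log2 fold change of 3.89 to 4.66 in Odc Treg cells without WT replicate 4 and from 4.55 to 3.87 in Dohh TH1 cells without KO replicate 3. In TH1 cells of the Odc table, WT libraries were at 12.6, 9.67, 7.84 and 17.3 CPM and KO libraries at 15.4, 27.8, 38.7 and 27.9 CPM (log2 fold change 1.21 ± 0.36 (SE), adjusted p = 0.00548). This was the only comparison in which the groups overlapped, through KO replicate 1, and the log2 fold change was 1.41 without the 3 Odc KO libraries of that number. In TH2 cells the values were 3.55, 2.4, 2.27 and 4.96 CPM in WT and 22.4, 29.2 and 23.8 CPM in KO (2.93 ± 0.42 (SE), adjusted p = 3.78e-06). TH17 cells had the lowest levels, at 0.812, 0.468, 1.7 and 1.86 CPM in WT and 5.45, 10.8, 15.1 and 8.07 CPM in KO (2.99 ± 0.47 (SE), adjusted p = 2.48e-05). In Treg cells, WT libraries were at 1.48, 1.14, 2.07 and 6.06 CPM and KO libraries at 44, 40.2, 49.1 and 24.9 CPM (3.89 ± 0.41 (SE), adjusted p = 2.07e-08). The KO Treg libraries thus stood above all WT TH1 libraries, the WT subset with the most Havcr2. Of 5 myeloid markers tested in the Odc table, 4 were called higher in TH17 and 3 in Treg cells, where the sum of the whole list was at 21.5 to 45.2 and 20.9 to 43.1 CPM in WT and 38.4 to 280 and 78.1 to 336 CPM in KO. In TH1 and TH2 cells 1 and 0 were called higher and 1 was called lower in each, and the part of these markers in the Havcr2 values was not tested. The TH1 call did not pass the test of the 2-fold change (adjusted p = 0.613).

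In Havcr2 level, every KO library of the Dohh table was far above every WT library of its subset. TH1 cells were at 5.71, 3.29 and 6.62 CPM in WT and 83.7, 67.7 and 213 CPM in KO (4.55 ± 0.44 (SE), adjusted p = 1.35e-07), and TH2 cells at 3.05, 1.06 and 1.57 CPM in WT and 88.1, 70.0 and 132 CPM in KO (5.63 ± 0.48 (SE), adjusted p = 2.86e-08). WT levels were lowest in TH17 cells, at 0.484, 0.585 and 0.115 CPM (6, 6 and 1 counts), against 18.8, 23.5 and 24.9 CPM in KO (5.72 ± 0.58 (SE), adjusted p = 2.05e-07). In Treg cells WT was at 0.978, 0.973 and 0.256 CPM (13, 8 and 3 counts) and KO at 35.4, 41.5 and 55.9 CPM (5.91 ± 0.53 (SE), adjusted p = 2.83e-08). TIM-3 is also made by myeloid cells, and of 7 myeloid markers tested, 7 were called higher in TH17 and 6 in Treg cells, 2 in TH1 and 5 in TH2 cells, although the negative selection should have removed such cells. In KO replicate 1, where the summed myeloid markers were at 99.0 CPM in TH17 and 80.4 CPM in Treg cells, Havcr2 was at 18.8 and 35.4 CPM, in replicate 2 (4538 and 3074 CPM) it was at 23.5 and 41.5 CPM, and in replicate 3 (1481 and 1884 CPM) at 24.9 and 55.9 CPM. Without the 2 libraries of replicate 2, the log2 fold changes in TH17 and Treg cells were 5.68 and 5.91, and without the 4 libraries of replicates 2 and 3, which leaves 1 KO library in each subset, they were 5.47 (adjusted p = 3.14e-05) and 5.55 (adjusted p = 4.96e-06). Summed myeloid markers were above the WT range in these KO libraries as well, and their part in the values was not tested.

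Cd160, a GPI-anchored receptor of NK cells, γδ T cells and activated CD8+ T cells, was close to the detection limit in WT cells and higher in KO cells of every subset. The rise was 6.1-fold to 30.0-fold in the Odc table and 35.6-fold to 55.5-fold in the Dohh table, and every KO library was above every WT library of its subset. In TH1 cells of the Odc table, WT was at 0.578, 0.996, 0.871 and 0.888 CPM (4, 7, 6 and 6 counts) and KO at 1.36, 16, 13.8 and 16.9 CPM (3.83 ± 0.57 (SE), adjusted p = 8.46e-06). KO replicate 1, with 9 counts, stayed near WT while the other 3 KO libraries were at 13.8 CPM or more. The smallest estimate was in TH2 cells, from 0.612, 0.534, 0.267 and 0.875 CPM (5, 4, 2 and 6 counts) to 3.45, 3.06 and 4.13 CPM (2.61 ± 0.70 (SE), adjusted p = 0.00254). TH17 cells were at 1.51, 0.585, 2.15 and 3.25 CPM in WT and 15.7, 33.5, 57.1 and 23.9 CPM in KO (4.10 ± 0.48 (SE), adjusted p = 6.16e-07), and Treg cells at 0.953, 1.45, 1.84 and 1.28 CPM in WT and 32.2, 44.7, 53.3 and 36.8 CPM in KO (4.91 ± 0.50 (SE), adjusted p = 1.22e-08). Treg and TH17 cells therefore held the highest median Cd160 levels among Odc KO cells.

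Dohh KO cells reached the highest Cd160 levels of the series in TH17 cells, at 143, 112 and 93.8 CPM against 2.34, 2.63 and 1.15 CPM in WT (5.79 ± 0.37 (SE), adjusted p = 4.63e-10). Treg cells were at 97.1, 59.1 and 52.5 CPM in KO and 1.73, 1.58 and 1.96 CPM in WT (5.29 ± 0.37 (SE), adjusted p = 5.89e-10), and TH1 cells at 35.4, 62.8 and 70.7 CPM in KO and 1.32, 0.697 and 1.57 CPM in WT (5.54 ± 0.39 (SE), adjusted p = 1.13e-09). As in the Odc table, TH2 cells were lowest, at 22.2, 19.8 and 33 CPM in KO and 0.576, 1.16 and 0.336 CPM in WT (5.15 ± 0.42 (SE), adjusted p = 8.24e-09). Summed γδ T cell markers were also higher in KO, as given above. Divided by that sum, Cd160 was at 0.0135 to 0.192 (median 0.0590) in WT and 0.0188 to 0.167 (median 0.105) in KO of the Odc table, and at 0.0146 to 0.0929 (median 0.0455) and 0.0443 to 0.194 (median 0.0998) in the Dohh table, over all subsets. Within a subset, the ratios of WT and KO libraries overlapped in all 4 subsets of the Odc table and in Treg cells of the Dohh table. They did not overlap in the other 3 Dohh subsets, at 0.0224 to 0.0560 in WT and 0.0988 to 0.150 in KO TH1 cells, 0.0146 to 0.0442 and 0.0443 to 0.0902 in TH2 cells, and 0.0407 to 0.0828 and 0.155 to 0.194 in TH17 cells. The markers of γδ T cells called higher were 3 of 4 in Odc TH1 cells and 4 of 4 in the other 7 comparisons. NK cell markers were called higher too, 3 to 6 of 6 in the Odc table and 3 to 5 of 5 in the Dohh table. Of 2 CD8 T cell markers, 1 was called higher in TH17 and Treg cells of both tables, 1 higher and 1 lower in Dohh TH2 cells, 1 lower in Dohh TH1 cells and 0 in Odc TH1 and TH2 cells. Their sum was at 16.2 to 41.4 CPM in WT and 144 to 219 CPM in KO Treg cells of the Odc table, and at 20.7 to 26.8 CPM and 173 to 338 CPM in Treg cells of the Dohh table. The negative selection named above is meant to remove these cell types, and the part of γδ, NK and CD8 T cells in the Cd160 result was not tested.

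**Figure D2:**
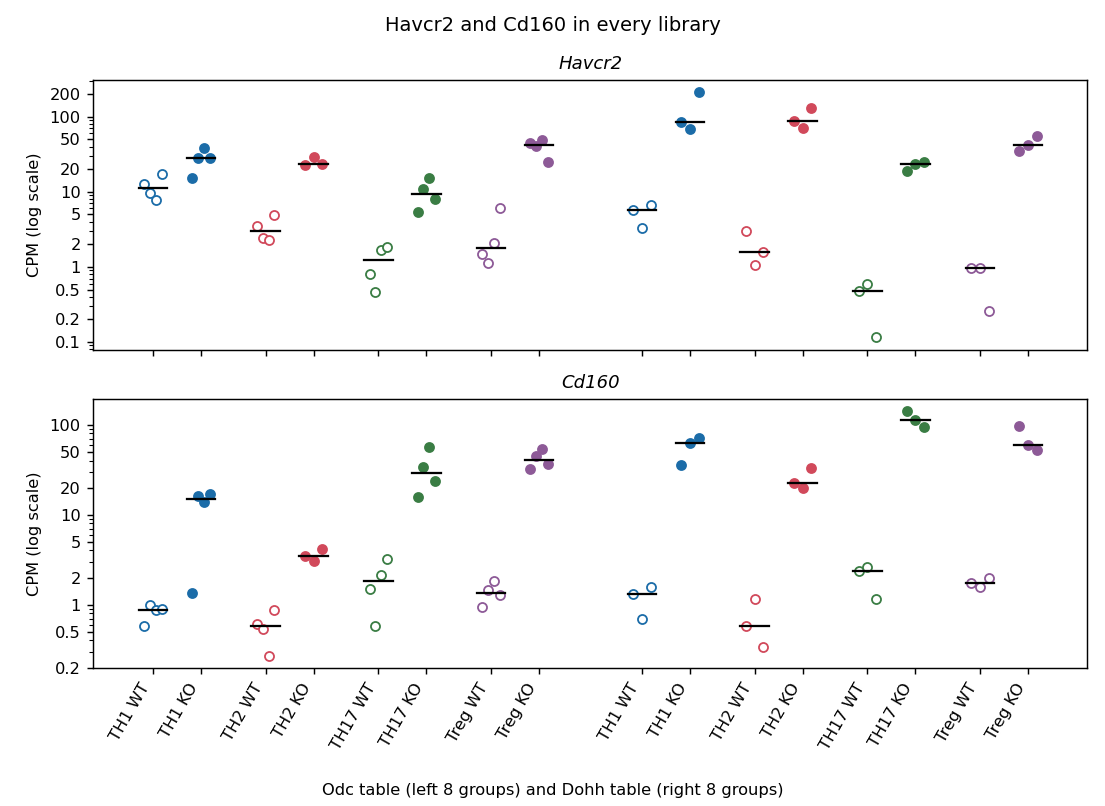
Havcr2 (top) and Cd160 (bottom) in CPM on a log scale in every library, by subset and genotype, with the Odc table in the left 8 groups and the Dohh table in the right 8. Open points are WT, filled points KO, and bars are medians. The KO groups stand above WT in all 8 pairs, with 1 low KO library in TH1 cells of the Odc table.

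**Figure D3:**
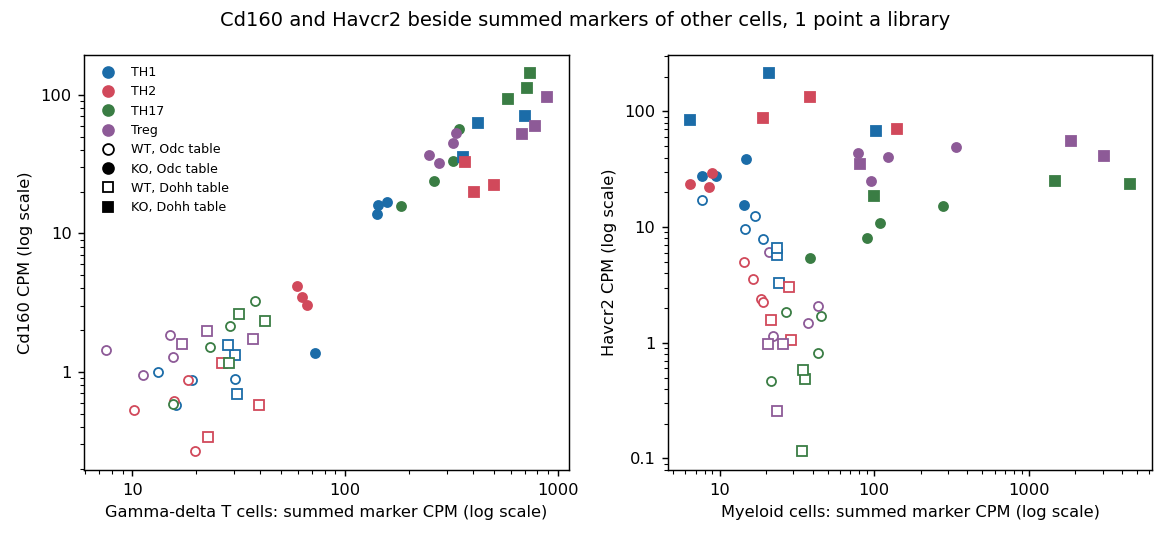
Cd160 in CPM against summed γδ T cell markers (left) and Havcr2 in CPM against summed myeloid markers (right), 1 point a library, both axes on a log scale, coloured by subset. Summed γδ markers were at most 42.2 CPM in WT and up to 884 CPM in KO, and summed myeloid markers at most 45.2 CPM in WT and up to 4538 CPM in KO.

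Pdcd1, which encodes PD-1, was higher in Dohh KO cells of 3 subsets and was not called in the Odc table. In TH1 cells of the Dohh table, WT was at 35.4, 44.5 and 35.4 CPM and KO at 128, 143 and 348 CPM (5.37-fold, log2 fold change 2.42 ± 0.30 (SE), adjusted p = 1.87e-06). TH17 cells were at 57.6, 59.9 and 46.2 CPM in WT and 378, 245 and 245 CPM in KO (5.3-fold, 2.41 ± 0.29 (SE), adjusted p = 1.69e-06), and TH2 cells at 42.8, 41.1 and 34.2 CPM in WT and 118, 96.9 and 108 CPM in KO (2.73-fold, 1.45 ± 0.29 (SE), adjusted p = 0.000407). Groups did not overlap in any of the 3. The TH1 value fell to 1.83 without KO replicate 3, and the TH2 call did not pass the test of the 2-fold change (adjusted p = 0.131). Treg cells, with the most Pdcd1 in WT, were at 107, 132 and 105 CPM in WT and 238, 182 and 136 CPM in KO, under the 2-fold limit (0.69 ± 0.28 (SE), adjusted p = 0.0416). Without the 4 libraries rich in myeloid markers the log2 fold change was 1.02, from 1 KO library. In the Odc table the nearest to a call was TH17, at 38.5, 34.7, 36.5 and 41.9 CPM in WT and 48.9, 87.6, 86.2 and 75.2 CPM in KO (0.97 ± 0.17 (SE), adjusted p = 7.99e-05). Pdcd1 passed the 2-fold limit there when the Odc KO libraries of number 1 were left out (log2 fold change 1.13) and when the WT libraries of number 4 were (1.03). Treg KO libraries of the Odc table also lay above all WT libraries, at 138, 167, 133 and 174 CPM against 112, 103, 119 and 92.4 CPM (0.52 ± 0.17 (SE), adjusted p = 0.00905), and TH1 and TH2 cells gave log2 fold changes of 0.37 and 0.27 (adjusted p = 0.0691 and 0.215).

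Lag3, a CD4 homologue, went down in Odc KO TH1 and TH2 cells and up in Dohh KO TH17 and Treg cells. In TH1 cells of the Odc table, WT was at 363, 264, 385 and 276 CPM and KO at 276, 96.5, 137 and 113 CPM (-1.05 ± 0.38 (SE), adjusted p = 0.0217). KO replicate 1 lay within the WT range. TH2 cells were at 279, 273, 344 and 311 CPM in WT and 101, 172 and 136 CPM in KO (-1.15 ± 0.42 (SE), adjusted p = 0.0221), with no overlap. Both calls sat close to the limits and did not pass the test of the 2-fold change (adjusted p = 0.95 and 0.674), and leaving out 1 library ended the TH1 call in 4 of 8 cases (KO replicates 2, 3 and 4 and WT replicate 3, adjusted p from 0.0526 to 0.0770) and the TH2 call in 2 of 7 (KO replicates 2 and 4, adjusted p = 0.09998 and 0.0547). In the Dohh table, TH17 cells were at 169, 122 and 138 CPM in WT and 653, 428 and 391 CPM in KO (1.78 ± 0.32 (SE), adjusted p = 0.000136), and Treg cells at 86.8, 64.1 and 66 CPM in WT and 417, 384 and 208 CPM in KO (2.22 ± 0.33 (SE), adjusted p = 1.21e-05). All 3 KO TH17 libraries and 2 of the 3 KO Treg libraries lay above the lowest WT TH1 library of that table (369 CPM). TH1 and TH2 cells of the Dohh table gave 0.12 (95% interval -0.53 to 0.77) and 0.36 (-0.29 to 1.01), and TH17 and Treg cells of the Odc table gave 0.28 (-0.52 to 1.07) and -0.08 (-0.87 to 0.71).

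Tigit was called in 2 comparisons, lower in Odc KO TH2 cells and higher in Dohh KO Treg cells. TH2 cells held the most Tigit in WT, at 175, 166, 178 and 169.5 CPM in the Odc table, and KO was at 45.7, 99.5 and 64.1 CPM (2.47-fold lower, -1.30 ± 0.29 (SE), adjusted p = 0.000405). The 4 WT libraries lay within a narrow band and the 3 KO libraries all below it, but the call did not pass the test of the 2-fold change (adjusted p = 0.281). Treg cells of the Dohh table were at 29.1, 15.3 and 18.9 CPM in WT and 66, 87.4 and 48.8 CPM in KO (3.17-fold, 1.67 ± 0.35 (SE), adjusted p = 0.000487). Groups overlapped in the other 6 comparisons, with log2 fold changes from -0.65 (Odc TH17) to 0.97 (Dohh TH17, adjusted p = 0.0243, under the 2-fold limit). The last was called without KO replicate 3 (1.32) or WT replicate 1 (1.10), with RLE size factors (1.004), with a mean count of at least 50 (1.007) and in a fit of the 2 groups by themselves (1.01). Without the 4 libraries rich in myeloid markers the Dohh TH17 value was 1.24, from 1 KO library. The Dohh TH1 value (0.80) was called without KO replicate 2 (1.07).

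Btla, the HVEM receptor of naive T cells and B cells, was lower in Dohh KO cells of all 4 subsets. TH1 cells were at 166, 192 and 170.5 CPM in WT and 11.4, 9.47 and 5.29 CPM in KO (20.1-fold lower, -4.33 ± 0.32 (SE), adjusted p = 3.1e-09). TH2 cells, with the most Btla in WT, were at 290.0, 332 and 401 CPM in WT and 30.7, 32.6 and 16.4 CPM in KO (12.8-fold lower, -3.68 ± 0.31 (SE), adjusted p = 1.3e-08). The fall was smaller in TH17 cells, at 79.1, 94 and 87.9 CPM in WT and 10.4, 18.5 and 20.4 CPM in KO (5.31-fold lower, -2.41 ± 0.30 (SE), adjusted p = 1.83e-06), and in Treg cells, at 34.4, 26 and 36.7 CPM in WT and 5.86, 8.79 and 12.6 CPM in KO (3.57-fold lower, -1.83 ± 0.30 (SE), adjusted p = 3.66e-05). KO and WT libraries were far apart in each subset. Without the 4 libraries rich in myeloid markers, the log2 fold changes were -3.05 in TH17 (adjusted p = 8.70e-05) and -2.50 in Treg cells (adjusted p = 0.000365), from 1 KO library each. In the Odc table no call was made, although every KO library was below every WT library in TH1 cells (246, 308, 256 and 336 against 237, 215, 166 and 173 CPM, -0.53 ± 0.18 (SE), adjusted p = 0.0125) and in TH2 cells (510.0, 567, 523 and 474 against 344, 321 and 286 CPM, -0.71 ± 0.19 (SE), adjusted p = 0.00278). The same held in TH17 cells, at 133, 138, 122 and 105 CPM in WT and 90.2, 69.8, 78.7 and 85.5 CPM in KO (-0.62 ± 0.18 (SE), adjusted p = 0.00704). In Treg cells the groups overlapped, at 105, 70.1, 99.8 and 41.4 CPM in WT and 86.4, 88.1, 66.9 and 76.4 CPM in KO (0.01, 95% interval -0.36 to 0.38). The summed T cell markers were at 1949 to 3036 CPM in WT and 1045 to 2393 CPM in KO of the Odc table, with 3 of 5 called lower in TH2 cells and 0 in the other subsets, and at 2573 to 3227 CPM in WT and 849 to 1798 CPM in KO of the Dohh table, with 3 of 5 called lower in each subset. That sum includes Cd4, whose low level in Dohh KO is given above. Cd3d was the most abundant of the list in Dohh KO, at means of 785, 432, 719 and 545 CPM in TH1, TH2, TH17 and Treg cells. B cell markers, of which 6 were tested in the Odc table, were all called higher in Odc TH1, TH2 and Treg cells, where their sum was at 9.10 to 46.2, 31.3 to 105 and 3.31 to 6.45 CPM in WT and 108 to 425, 321 to 561 and 24.2 to 203 CPM in KO, and 1 was in TH17 cells. In the Dohh table they numbered 0 to 2 of 5. The part of these markers in the Btla results was not tested.

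Entpd1, which encodes CD39, was lower in Odc KO TH1 and TH2 cells and higher in Dohh KO TH2 cells. In TH1 cells of the Odc table, WT was at 74.7, 54.8, 63.1 and 48.7 CPM and KO at 48.2, 9.39, 17.6 and 9.1 CPM (2.88-fold lower, -1.53 ± 0.33 (SE), adjusted p = 0.000421). KO replicate 1 lay just under WT and the other 3 KO libraries far below, and the log2 fold change was -2.33 without the Odc KO libraries of number 1. TH2 cells were at 21.3, 13.5, 16.3 and 15.6 CPM in WT and 3.45, 9.56 and 4.91 CPM in KO (2.78-fold lower, -1.48 ± 0.41 (SE), adjusted p = 0.00336). Neither of these calls passed the test of the 2-fold change (adjusted p = 0.167 in TH1 and 0.248 in TH2 cells). In the Dohh table the same subset went from 22.2, 13.1 and 11.7 CPM to 77.8, 49.4 and 62.9 CPM (4.02-fold higher, 2.01 ± 0.31 (SE), adjusted p = 3.18e-05). Treg cells, where CD39 is a marker, were not called in either table, at 19.4, 14.3, 23.7 and 16.3 CPM in WT and 19.7, 16.4, 22.7 and 15.9 CPM in KO of the Odc table and 25.8, 21.8 and 25.6 and 42.8, 46.6 and 32.8 CPM in the Dohh table (0.74 ± 0.30 (SE), adjusted p = 0.0436). TH17 cells gave 0.02 (-0.72 to 0.76) and 0.17 (-0.49 to 0.82).

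Tox moved in opposite directions in the 2 tables in TH1 and TH2 cells. WT levels in TH1 cells were themselves unlike, with means of 1.37 CPM in the Odc and 5.27 CPM in the Dohh table. KO means there were 5.77 and 0.426 CPM. In the Odc table Tox was called higher in KO TH1, TH2 and TH17 cells. WT TH1 cells were at 1.3, 1.85, 1.45 and 0.888 CPM and KO at 2.27, 10.6, 3.38 and 6.86 CPM (4.19-fold, 2.07 ± 0.50 (SE), adjusted p = 0.001), and TH2 cells were at 0.857, 1.6, 0.668 and 1.9 CPM in WT and 11, 3.82 and 5.56 CPM in KO (5.41-fold, 2.44 ± 0.52 (SE), adjusted p = 0.000261). TH17 cells were at 4.64, 2.93, 3.39 and 8.13 CPM in WT and 7.04, 15, 11 and 13.5 CPM in KO (2.44-fold, 1.29 ± 0.39 (SE), adjusted p = 0.00925), with 1 KO library, replicate 1, below the highest WT library. The calls in TH1 and TH17 cells did not pass the test of the 2-fold change (adjusted p = 0.0712 and 0.715). Treg cells, which held the most Tox in WT, were at 26.6, 39.6, 25.9 and 40.2 CPM in WT and 10.3, 26.1, 16.8 and 24 CPM in KO, which overlapped (-0.77 ± 0.35 (SE), adjusted p = 0.058).

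Tox was called lower in the Dohh table in TH1, TH2 and Treg cells. TH1 cells were at 4.8, 6.97 and 4.04 CPM in WT and 0.204, 0.631 and 0.441 CPM (2, 4 and 4 counts) in KO (12.7-fold lower, -3.67 ± 0.53 (SE), adjusted p = 1.36e-05). Treg cells went from 23.2, 23.3 and 31.1 CPM to 1.99, 3.33 and 2.16 CPM (10.3-fold lower, -3.37 ± 0.43 (SE), adjusted p = 1.69e-06). TH2 cells had 19, 13 and 15 counts in WT and 3, 3 and 0 counts in KO (-2.81 ± 0.62 (SE), adjusted p = 0.00107), so the KO level was at the detection limit, and measured against 3 counts per library the fall was 4.92-fold. In TH17 cells KO was at 1.72, 6.35 and 7.25 CPM, all below WT at 8.23, 7.8 and 9.01 CPM, but not called (-0.72 ± 0.40 (SE), adjusted p = 0.134). Without the 4 libraries rich in myeloid markers the log2 fold change was -2.26, from 1 KO library, at 1.72 CPM. In Tox level, every Dohh KO library was therefore below every WT library of its subset.

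Tox2 was most abundant in TH17 cells and was called lower in 2 comparisons of the Dohh table. In TH17 cells of the Odc table, WT was at 24.2, 17.3, 25.1 and 11.3 CPM and KO at 27.2, 14.3, 26.1 and 14.7 CPM (0.08 ± 0.30 (SE), adjusted p = 0.85). The Dohh table gave 16.3, 12.9 and 13.4 CPM in WT and 9.03, 6.59 and 3.17 CPM in KO (-1.17 ± 0.44 (SE), adjusted p = 0.0305), a call that held in 1 of 6 fits with 1 library left out, the one without KO replicate 1, and was lost in the other 5 (adjusted p from 0.0537 to 0.13). It was also lost without the 2 libraries richest in myeloid markers (adjusted p = 0.0632) and under the test of the 2-fold change (adjusted p = 0.505). Without the 4 libraries rich in myeloid markers the log2 fold change was -0.65, from 1 KO library. The call in Dohh TH1 cells rested on 7, 3 and 9 counts in WT and 3, 1 and 0 counts in KO (-1.89 ± 0.78 (SE), adjusted p = 0.049) and was lost under the test of the 2-fold change and under 9 of 13 other alternatives (adjusted p from 0.0305 to 0.181 over all 13), the 9 being RLE size factors, no low-count filter, the replicate block, DESeq2, the 2 libraries richest in myeloid markers left out, and KO replicates 2 or 3 or WT replicates 1 or 3 left out. With 1 library left out its log2 fold change ran from -2.99 (without KO replicate 1) to -1.29 (without KO replicate 3). Measured against 3 counts per library, the fall was 1.70-fold, under the 2-fold limit. In the other 5 comparisons, the log2 fold changes ran from -0.66 to 0.88 and none was called.

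**Figure D4:**
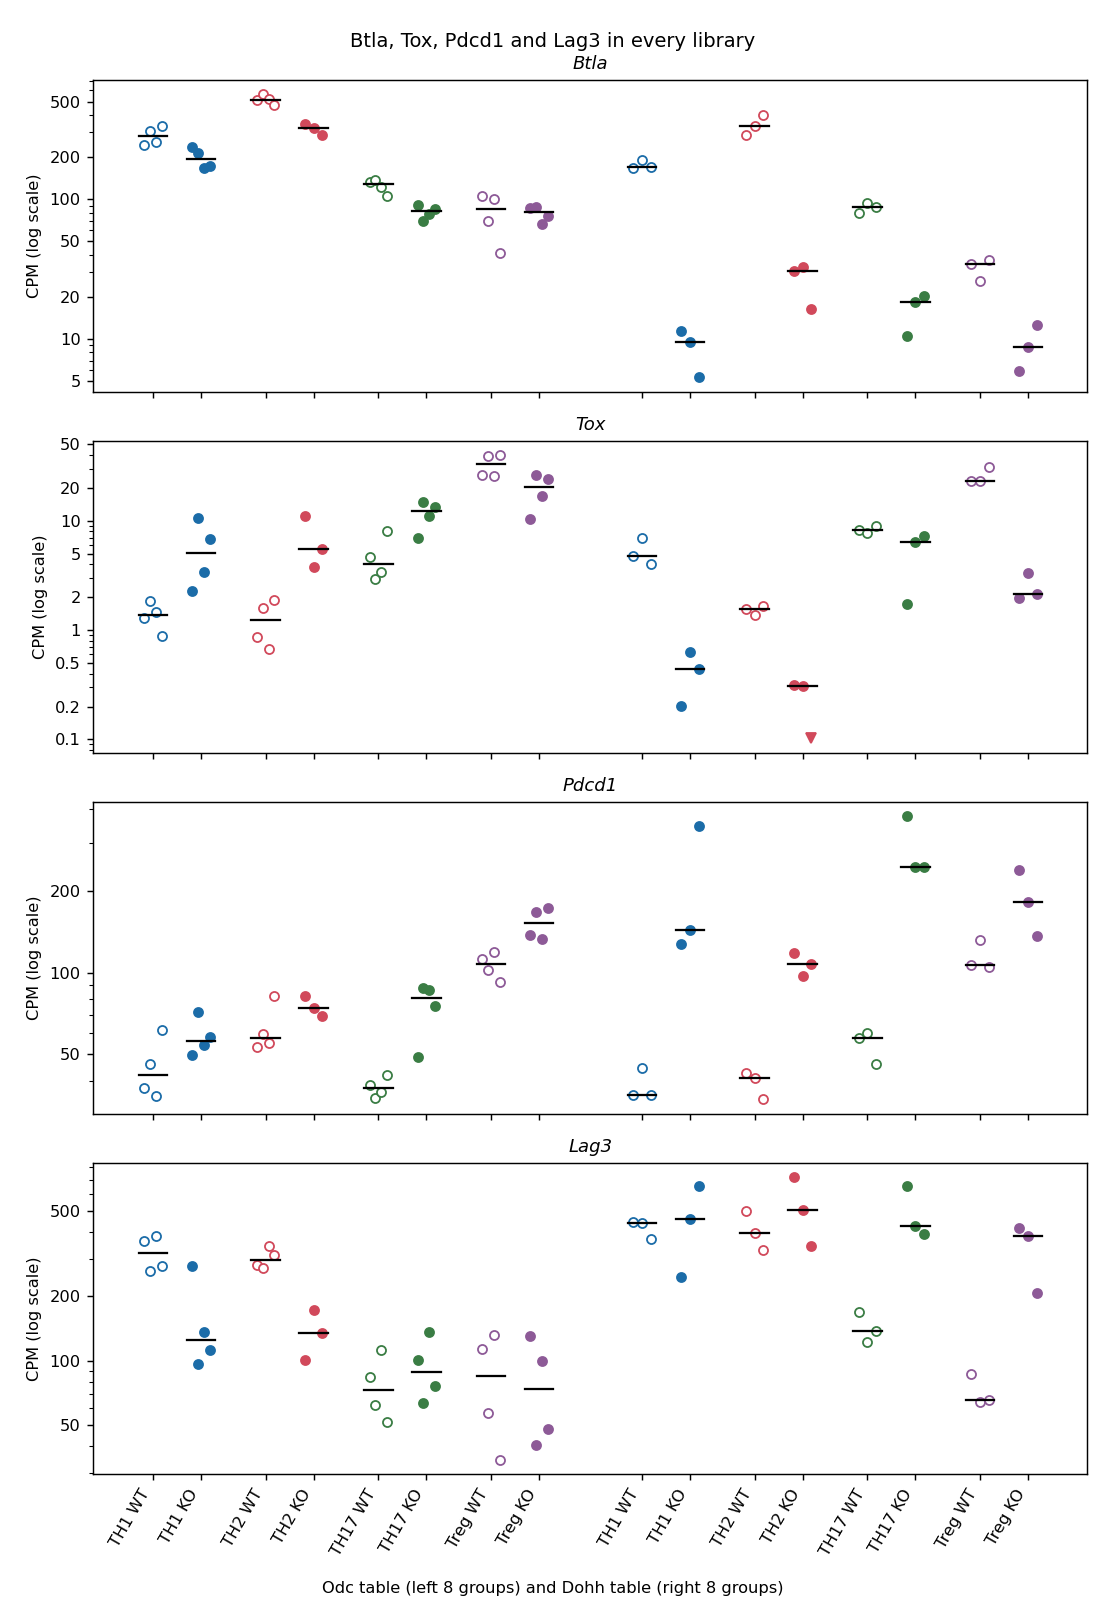
Btla, Tox, Pdcd1 and Lag3 in CPM on a log scale in every library, with the Odc table in the left 8 groups and the Dohh table in the right 8. Open points are WT, filled points KO, bars are medians, and a triangle marks a library with 0 counts drawn at the bottom. Btla lies far below WT in Dohh KO and less far below it in TH1, TH2 and TH17 cells of Odc KO, and Tox KO points lie above WT in Odc TH1 and TH2 cells and below WT in all Dohh subsets.

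Whether the KO against WT difference varied between the 4 subsets was tested for each gene with the interaction of genotype and subset. In the Odc table, 4 of 9 genes passed (34.8% of all genes tested), which were Havcr2 (adjusted p = 0.00240, smallest in TH1 and largest in Treg cells), Tigit (adjusted p = 0.0333), Entpd1 (adjusted p = 0.0121) and Tox (adjusted p = 0.000382, from -0.77 in Treg to 2.44 in TH2 cells). Without the 3 Odc KO libraries of number 1, the count was 7 (39.2% of all genes in that fit). Pdcd1, Lag3 and Cd160 (adjusted p = 0.0183, 0.0301 and 0.0309) were added. The count fell to 3 without the 4 WT libraries of number 4 (40.9% of all genes), where Tigit did not pass (adjusted p = 0.0873). With no low-count filter it was also 3 (14.9% of all genes), again without Tigit (adjusted p = 0.108). With genotype and replicate number as a block, Pdcd1 (adjusted p = 0.0139) and Lag3 (adjusted p = 0.00291) passed too, which gave 6 of 9 beside 52.9% of all genes. In the Dohh table, 5 of 9 passed (17.9% of all genes tested), which were Pdcd1 (adjusted p = 0.00712), Lag3 (adjusted p = 0.00298, from 0.12 in TH1 to 2.22 in Treg cells), Btla (adjusted p = 0.000553, from -4.33 in TH1 to -1.83 in Treg cells), Entpd1 (adjusted p = 0.0156) and Tox (adjusted p = 0.00470). With the same block Tigit (adjusted p = 0.0350) passed as well, 6 of 9 beside 19.0% of all genes. Without the 4 libraries rich in myeloid markers 2 passed (9.38% of all genes), Lag3 and Entpd1, and Pdcd1, Btla and Tox did not (adjusted p = 0.0514, 0.0532 and 0.363). Havcr2 and Cd160 did not pass in the Dohh table (adjusted p = 0.323 and 0.777), and Cd160 did not in the Odc table either (adjusted p = 0.247). For Tox2, a difference between subsets was not detectable in either table.

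The 2 deletions were compared in 1 fit of all 55 libraries, as the KO against WT difference in the Odc table minus that in the Dohh table. Each deletion was measured with its own WT in its own table, so the deletion and the experiment cannot be told apart. The differences passed for 6 of 9 genes in TH1 cells (18.5% of all 14850 genes tested), 5 in TH2 (15.7%), 7 in TH17 (21.4%) and 5 in Treg cells (26.2%). The TH17 count was 3 without the libraries of replicate 1 or 2 and 4 without those of replicate 3 or with no low-count filter, and the TH2 count was 3 without those of replicate 2 and 8 with the replicate block and with DESeq2. In TH17 cells Btla and Pdcd1 passed in all of these fits. Tox was lost there without replicate 1 or 2 (adjusted p = 0.0512 and 0.0620), Havcr2 without replicate 1, 3 or 4 or with no filter (0.0541 to 0.0726), Lag3 without replicate 1, 2 or 3 or with no filter (0.0917 to 0.177), Tigit without replicate 2 (0.0775), and Cd160 without any 1 replicate and with no filter (0.0666 to 0.299). In TH2 cells Havcr2 and Pdcd1 were lost without replicate 2 (0.0518 and 0.0732) and Pdcd1 also without replicate 4 (0.0840). In Treg cells Havcr2 was lost without replicate 3 or 4 or with no filter (0.0713 to 0.315), and Tigit without replicate 2 (0.0954). In TH1 cells Entpd1 was lost without replicate 2 or 3 (0.0545 and 0.126). Tigit was lost there without replicate 2, 3 or 4 or with no filter (0.0718 to 0.102). In the fit of all libraries, Tox differed in all 4 subsets, by 5.71 in TH1 (95% interval 4.18 to 7.25), 5.26 in TH2, 1.95 in TH17 and 2.55 in Treg cells. Btla differed in all 4, by 3.78, 2.99, 1.74 and 1.80 in the same order, and Havcr2 rose by a larger fold in Dohh KO in all 4, with differences of -3.35, -2.68, -2.77 and -2.04. In Treg cells, mean Havcr2 was at 39.5 CPM in Odc KO and 44.2 CPM in Dohh KO. WT means there were 2.69 CPM (Odc) and 0.736 CPM (Dohh), so the Treg difference lay mostly in WT levels. Pdcd1 differed in TH1 (-2.07), TH2 (-1.16) and TH17 cells (-1.48) and did not pass in Treg cells (-0.22, 95% interval -0.85 to 0.41). Entpd1 differed in TH1 (-1.95) and by more in TH2 cells (-3.47, -4.55 to -2.38), where the 2 tables moved in opposite directions. Tox2 differed in 0 of 4 subsets, and Cd160 in 1, TH17 (-1.74, adjusted p = 0.049), with an interval of -1.79 to 0.95 in Treg cells.

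Levels in WT cells are compared between genes as CPM per kb of exon. The most abundant were Tigit in TH2 cells (187 in the Odc and 121 in the Dohh table), Btla in TH2 cells (153 and 100.4) and Lag3 in TH1 cells (153 and 198). Pdcd1 in Treg cells followed (55.2 and 59.3). Havcr2, Cd160, Tox and Tox2 were low, with highest group means of 5.73 for Tox2 in TH17 cells, 4.36 for Havcr2 in TH1 cells and 4.35 for Tox in Treg cells, all in the Odc table. Between WT subsets, members were called in 31 of 54 pairwise tests in the Odc table (16% of all gene and pair tests) and 35 of 54 in the Dohh table (12.0%). Among KO cells they were called in 25 of 54 in each table (13% and 10.6%).

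The order of the subsets by WT level was the same in both tables for Havcr2, Tigit, Cd160, Btla, Entpd1, Tox and Tox2, and differed for Pdcd1 and Lag3 only among subsets that were not called apart. Tox was highest in Treg cells, called above TH17 by 2.79 in log2 in the Odc table and by 1.63 in the Dohh table. Tox2 was highest in TH17 cells, by 3.16 and 2.34 over TH2 cells. Tigit was highest in TH2 cells, by 1.29 and 1.17 over TH1 cells. Only these 3 genes had a top subset called above the next in both tables. Btla fell from TH2 to TH1 to TH17 to Treg cells in both tables, with TH1 called above TH17. Lag3 was high in TH1 and TH2 cells, which were not called apart, and lower in TH17 and Treg cells, with TH2 called above the next subset. Entpd1 and Havcr2 were highest in TH1 cells, called above the next subset in the Odc table and not in the Dohh table. Pdcd1 was highest in Treg cells, called above the next subset in the Dohh table (by 1.07 over TH17 cells, adjusted p = 0.0155) and under the 2-fold limit in the Odc table (by 0.77 over TH2 cells, adjusted p = 0.000405), and its other 3 subsets were not called apart from each other. Cd160 had no neighbours called apart in WT.

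Among KO cells these orders changed for some genes. Lag3 was called between 0 of 6 pairs of subsets in KO cells of either table, while WT cells of each table gave 4 of 6. Tox was called in 2 of 6 pairs in Odc KO against 5 of 6 in WT, and in 4 against 5 in the Dohh table. Btla was called in 2 of 6 in Dohh KO against 5 of 6 in WT, and in 4 against 4 in the Odc table. Cd160 was called in more pairs in KO, 5 of 6 against 0 in WT of the Odc table and 4 of 6 against 2 in the Dohh table. The change in these counts between genotypes was not tested apart from the interaction above.

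**Figure D5:**
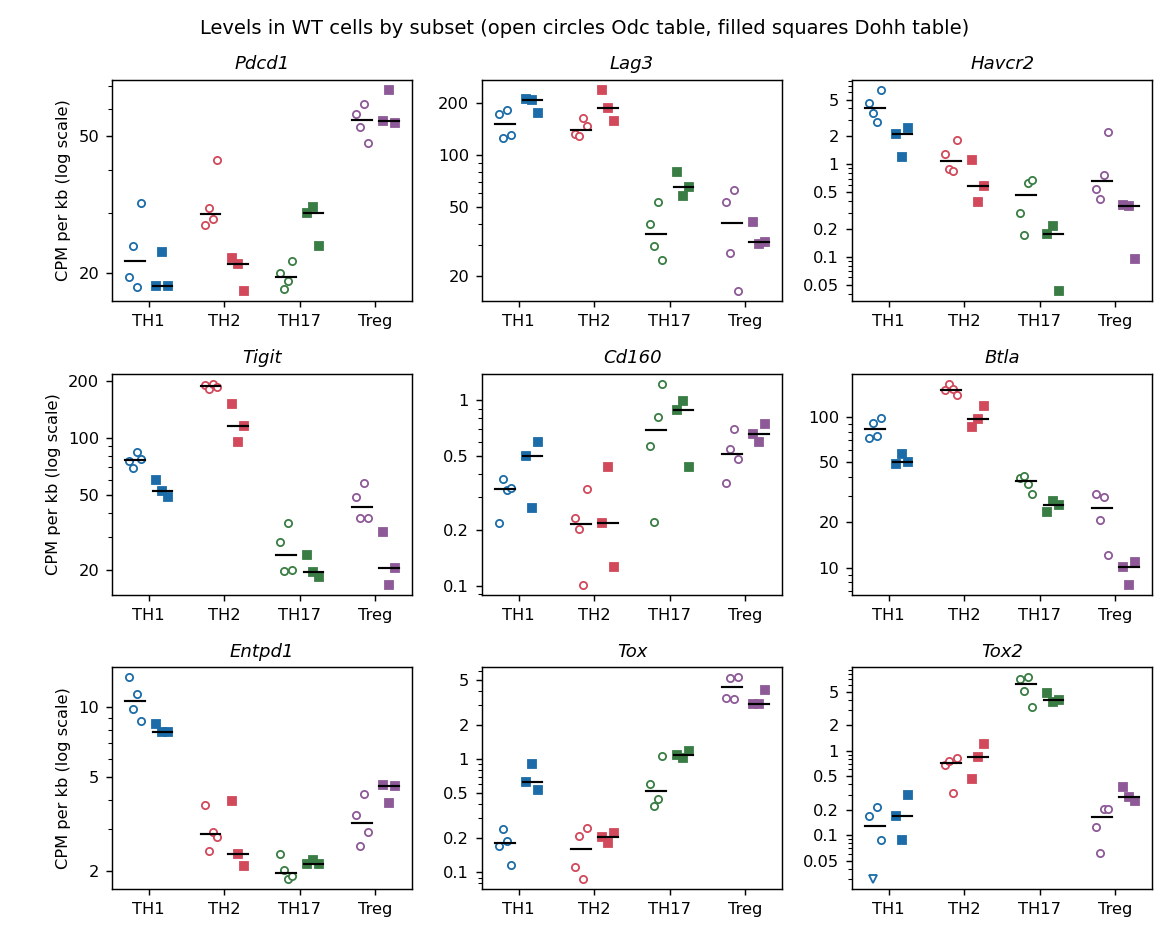
WT levels of the 9 genes in CPM per kb of exon (log scale) by subset. Open circles are libraries of the Odc table, filled squares of the Dohh table, bars are medians and a triangle marks 0 counts. Tox peaks in Treg cells, Tox2 in TH17 cells and Tigit in TH2 cells in both tables.

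Other genes of the pathway were taken from 6 lists chosen by function. Their counts are to be read beside the shares of all genes called in the same comparisons, 8.35% to 17.5% higher and 7.21% to 15.2% lower. Of 14 other coinhibitory receptors tested, 4 to 8 were higher and 2 to 4 lower, depending on the comparison. Klrg1, an inhibitory receptor of NK and terminal effector T cells, was higher in all 8, at 1.06 ± 0.739 CPM in WT and 8.54 ± 0.982 CPM in KO TH1 cells of the Odc table (log2 fold change 3.00 ± 0.44 (SE), adjusted p = 6.24e-06). Cd300a was higher in 6 of 8 and Pilra in 4 of 8, both receptors mainly of myeloid cells, and in Dohh KO TH17 cells they were at 12.4 ± 6.73 and 26.5 ± 18.9 CPM. The genes of this list outside the naming rule were added after their values were seen. Cd244a and Cd96 were higher in all 8, Siglecg in 6 and Cd200r1 in 4. Ctla4, the CD28 homologue that competes for CD80 and CD86, was lower in 7 of 8 (log2 fold changes from -1.96 to 0.44). Cd5, Cd101 and Vsir were lower in 4 of 8 each and Cd200 in 2. Lair1 was higher in 3 and lower in 1, and Ceacam1 higher in 1 and lower in 2. Of 11 ligands tested, 2 to 5 were higher and 1 to 4 lower. Pvr, the CD155 that TIGIT and CD226 bind, was lower in 7 of 8, for example at 89.4 ± 10.6 CPM in WT and 16.7 ± 0.36 CPM in KO TH17 cells of the Dohh table (-2.42 ± 0.16 (SE), adjusted p = 5.95e-10), while Nectin3 and Lgals3 were each higher in 6 of 8.

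Of 12 costimulatory receptors, 0 to 2 were higher and 1 to 8 lower, with the fewest lower in Odc TH1 (1) and TH2 cells (3). Cd28 was lower in 6 of 8 (Treg cells 373 ± 149 against 79.4 ± 28.2 CPM in the Odc table, -2.23 ± 0.29 (SE), adjusted p = 5.16e-07) and Cd40lg, the CD40 ligand, in 5 of 8 (Dohh TH1 63.5 ± 6.05 against 3.54 ± 2.26 CPM, -4.11 ± 0.44 (SE), adjusted p = 3.95e-07). Tnfrsf4 (OX40) was lower in 5 of 8. The list's median log2 fold change was between -0.37 and -1.52. Among 10 phosphatases and adaptors, 0 to 1 were higher and 0 to 4 lower, with Dgka, a diacylglycerol kinase that limits T cell receptor signalling, lower in 6 of 8 and the SLAM adaptor Sh2d1a in 5 of 8, while Rnf128 was higher in 3 and lower in 1. Of 12 purinergic genes, 2 to 4 were higher and 0 to 3 lower. Ada, which breaks down adenosine, was higher in all 8, by 1.14 (Odc TH17) to 2.93 (Dohh Treg) in log2, Adk in 5, and the adenosine receptor Adora2b was higher in 3 and lower in 1.

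Of 19 transcription factors tested, 2 to 7 were higher and 2 to 6 lower. Eomes, the T-box factor of cytotoxic and exhausted cells, was higher in all 8, at 7.93 ± 0.779 CPM in WT and 49.6 ± 10.2 CPM in KO Treg cells of the Odc table (2.64 ± 0.31 (SE), adjusted p = 8.81e-08). Tbx21 (T-bet) was higher in 7 of 8, at 2.43 ± 0.753 and 60.5 ± 26.7 CPM in TH17 cells of the Dohh table (4.61 ± 0.39 (SE), adjusted p = 1.6e-08). It was not called in TH1 cells of the Odc table (0.41 ± 0.30 (SE), adjusted p = 0.241). Bach2, a repressor of effector programmes, was lower in 6 of 8. Klrg1, Eomes and Tbx21 are also made by NK cells. Summed NK markers, of which Eomes is itself 1, were at 7.60 to 80.2 CPM in WT and 31.9 to 368 CPM in KO of the Odc table. In the Dohh table they were at 7.16 to 35.7 and 42.8 to 549 CPM. A rise in Eomes thus raises that sum. Klrk1 was the most abundant of these markers in every KO group, for example at a mean of 229 CPM in Odc KO Treg cells. The part of NK cells in these values was not tested.

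The genes whose level followed each member most closely over the 16 groups (Pearson r of group mean log2 CPM, each table centred, among 12924 genes) were sought as a description. The 16 groups share tables and libraries, so no p is given. Cd160 was followed by Tcrg-C1 (r = 0.984) and Trgj1 (r = 0.979), which are γ chain genes of the T cell receptor, and by Plekhg3 (r = 0.976). Havcr2 was followed by Gzmc (granzyme C, r = 0.968), Tmem199 (r = 0.963) and Timmdc1 (r = 0.961), and Btla by Cd200 (r = 0.945), Fhit (r = 0.942) and 1700086P04Rik (r = 0.939). Tox2 was followed by the TH17 cytokine Il17f (r = 0.924), Ahr (r = 0.908) and Lbp (r = 0.9). The other leading genes were Slc36a3os for Pdcd1 (r = 0.927), Rcn3 for Lag3 (r = 0.927), Kdelr2 for Tigit (r = 0.914), Nt5dc1 for Tox (r = 0.910) and Tbc1d2b for Entpd1 (r = 0.886). Among the members themselves, Pdcd1 and Cd160 had r = 0.799, Havcr2 and Cd160 r = 0.765, Lag3 and Tigit r = 0.756, Btla and Pdcd1 r = -0.823, Btla and Cd160 r = -0.802 and Lag3 and Tox r = -0.817.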

How the data were processed

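CD4+ T cells, naive per the study's methods, were isolated by negative selection and polarized in vitro, and their RNA was sequenced (TruSeq stranded mRNA kit, Illumina). The authors mapped reads to mm10 with STAR and counted them with featureCounts, with versions and strand setting not given in the sources used here, and deposited raw counts per gene in a table for each deletion. There were 31 libraries for Odc and 24 for Dohh, since the labels name 1 TH2 Odc KO library that is not analysed here.

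Counts were tested with edgeR 4.0.16 (R 4.3.3), with filterByExpr, TMM scaling, robust glmQLFit and glmQLFTest, all 8 groups of a table in 1 fit and 1 mean per group. P-values were adjusted (Benjamini-Hochberg) over all genes tested in the contrast. A call needed an absolute log2 fold change above 1 and an adjusted p below 0.05, the study's thresholds, which were there applied with DESeq2. The interaction of genotype and subset was tested within each table, and Odc against Dohh in 1 fit of both, with an adjusted p below 0.05. CPM are TMM-scaled. Gene symbols and positions came from GENCODE M21 (47224 of 47937 genes found) and promoter sequence from RefSeq. The fitting steps were tested on simulated data. Intervals and detection limits cover counting error or the spread between libraries only.

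Alternatives were RLE size factors, no low-count filter, a filter on mean counts below 50, fits of 2 groups by themselves, a replicate block, DESeq2 1.42.0, a test of the 2-fold change, adjusted p alone and each library left out in turn. A block of genotype and number was also fitted for the interaction. Chosen after seeing the data were leaving out 3 Odc KO libraries of number 1, 4 WT libraries of number 4 and 2 or 4 Dohh KO libraries rich in myeloid markers. The rule for named genes was all 9 members, the 3 most changed genes of each of 6 lists and the 3 genes most like each member. The members and lists were chosen with earlier results of these data known.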

Additional observations from a re-analysis of the deposited data

Results flagged for a closer look

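The KO against WT difference varied between subsets in 9 of 18 tests of the interaction. In the Odc table these were Havcr2 (adjusted p = 0.00240), Tigit (adjusted p = 0.0333), Entpd1 (adjusted p = 0.0121) and Tox (adjusted p = 0.000382). In the Dohh table they were Pdcd1 (adjusted p = 0.00712), Lag3 (adjusted p = 0.00298), Btla (adjusted p = 0.000553), Entpd1 (adjusted p = 0.0156) and Tox (adjusted p = 0.00470). Tigit in the Odc table did not pass without the WT libraries of number 4 (adjusted p = 0.0873) or with no low-count filter (0.108).

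The Odc and Dohh differences were unlike each other in 23 of 36 tests. Values are the log2 fold change in the Odc table minus that in the Dohh table. Several were lost in other fits, as given above, among them Tigit in TH1 and Treg cells. In TH1 cells the values were -2.07 for Pdcd1, -3.35 for Havcr2, -1.35 for Tigit, 3.78 for Btla, -1.95 for Entpd1 and 5.71 for Tox. In TH2 cells they were -1.16 for Pdcd1, -2.68 for Havcr2, 2.99 for Btla, -3.47 for Entpd1 and 5.26 for Tox. In TH17 cells they were -1.48 for Pdcd1, -1.55 for Lag3, -2.77 for Havcr2, -1.68 for Tigit, -1.74 for Cd160, 1.74 for Btla and 1.95 for Tox. In Treg cells they were -2.34 for Lag3, -2.04 for Havcr2, -1.57 for Tigit, 1.80 for Btla and 2.55 for Tox. The 2 deletions were measured in separate tables with separate WT cells, so the deletion and the experiment cannot be told apart.

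None of the 63 gene groups of 4 libraries held a library far from the others by Dixon's criterion.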

How the results depend on the processing

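The test of the 2-fold change ended 11 of the 40 calls, those of Lag3, Entpd1, Havcr2 and Tox in Odc TH1 cells (adjusted p = 0.95, 0.167, 0.613 and 0.0712), Lag3, Tigit and Entpd1 in Odc TH2 cells (0.674, 0.281 and 0.248), Tox in Odc TH17 cells (0.715), Pdcd1 in Dohh TH2 cells (0.131) and Tox2 in Dohh TH1 and TH17 cells (0.248 and 0.505). Under all other alternatives 36 calls held, 4 were lost under 1 or more (Lag3 in Odc TH1 and TH2 cells, Tox2 in Dohh TH1 and TH17 cells) and 0 reversed. The cause was not tested for any change below. With the test of the 2-fold change, calls fell to 1 in Odc TH1 and 3 in Odc TH2 cells. With adjusted p alone they rose to 5 in Odc TH17 cells. The Odc interaction count was 3, with Tigit lost, with no low-count filter or without the 4 WT libraries of number 4. It ranged from 3 to 5 with 1 library left out. The interaction count was 7 in the Odc table without the 3 KO libraries of number 1 and 2 in the Dohh table without the 4 KO libraries rich in myeloid markers, a fit in which the lone KO library of TH17 and of Treg cells is assumed to vary like the other groups. The number of genes with unlike Odc and Dohh differences was 8 in TH2 cells with the replicate block and with DESeq2, and 4 in TH17 cells with no low-count filter; with 1 replicate left out it ranged from 3 to 6 in TH2 and from 3 to 5 in TH17 cells.

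The directions that turned were all of uncalled values, from -0.0784 to 0.417 in log2. Btla in Odc Treg cells was -0.0616 with RLE size factors, -0.0650 with no low-count filter, -0.000959 with a mean count of at least 50, -0.0493 with only the 2 groups compared, -0.0633 with DESeq2, -0.0353 without the Odc KO libraries of number 1 and -0.204 without the WT libraries of number 4. Entpd1 in Odc TH17 cells was -0.0154, -0.00871, -0.00488 and -0.0144 with RLE, no filter, the 2 groups and DESeq2 and -0.0102 without the WT libraries of number 4, and in Odc Treg cells -0.0437, -0.0509, -0.0303, -0.0460, -0.00762 (KO number 1 left out) and -0.0335 (WT number 4 left out). Tox2 was -0.0363 in Odc TH1 cells without the WT libraries of number 4, -0.0905 and -0.112 in Odc TH17 cells without KO number 1 or WT number 4, and -0.150 in Dohh Treg cells without the 2 libraries richest in myeloid markers. Entpd1 in Dohh TH17 cells was -0.394 without the 4. With 1 library left out, the ranges that crossed 0 were -0.42 to 0.22 for Lag3 and -0.20 to 0.17 for Btla in Odc Treg cells, -0.23 to 0.44 for Lag3 and -0.18 to 0.66 for Entpd1 in Dohh TH1 cells, -0.42 to 0.13 for Tigit in Dohh TH2 cells, -0.0363 to 0.0990 for Entpd1 in Odc TH17 cells, -0.0877 to 0.163 for Entpd1 in Odc Treg cells, -0.73 to 0.50 and -0.11 to 0.22 for Tox2 in Odc TH1 and TH17 cells, and -0.15 to 0.50 for Tox2 in Dohh Treg cells.

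The replicate numbers did not pair WT with KO (correlations of same-numbered libraries within a subset from -0.0858 to 0.196, and in no subset every one above 0.1). Across subsets of 1 genotype, same-numbered libraries deviated together in Odc WT (0.206 to 0.576, all 24 above 0.1), and the correlations were above 0.1 in 20 of 21 pairs in Odc KO, 15 of 18 in Dohh WT and 13 of 18 in Dohh KO. A block of genotype and number gave 33 in place of 31 calls between subsets in Odc WT and 6 interactions in each table. With the replicate block, 71 of 72 gene results kept their side of the threshold, and Tox2 in Dohh TH1 cells did not (adjusted p = 0.0590). The mean count of at least 50 left some members untested. Depth limits Cd160 in WT, Havcr2 in WT TH17 cells and Dohh WT Treg cells, Tox in Odc WT TH1 and TH2 and Dohh KO TH1 and TH2 cells, and Tox2 in TH1 and Treg cells, where few counts set the fold.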
